A study of Caenorhabditis elegans with 4 samples.

Results

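Wide peaks of moderate score were the subset of ZIM-1 binding regions that spanned at least 1000 bp and yet carried a peak score below 100. They were taken from the deposited series-wide peak list of a chromatin immunoprecipitation and sequencing (ChIP-seq) experiment in Caenorhabditis elegans, on chromosomes II, III, IV, V and X. There were 479 such peaks among the 7333 peaks of those chromosomes that scored below 100, a share of 6.53% (exact Clopper-Pearson 95% interval 5.98 to 7.12), and the whole series-wide list held 9439 peaks. The members were chosen by measured values of that list, width and score, so their widths and scores are given as a description and carry no test. Other peaks with scores below 100 on the same chromosomes, 6854 in number and under 1000 bp wide, served as the background.

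The worms were of the strain fem-2(b245), genotype fem-2(b245)III, a mutation in a gene of the sex determination pathway. They were hermaphrodites with a germline, kept at 20 °C and labelled as young adults, although the growth protocol in the labels speaks of gravid adults. This mutation is shared by both groups, which hold 2 ChIP libraries and 2 libraries of input DNA. Fixation was with 1% formaldehyde for 10 min, and the antibody was an affinity-purified rabbit polyclonal raised against a fragment of ZIM-1. Peak lists were analysed for the 2 ChIP replicates and for the series as a whole, all on WormBase WS220; values of the input libraries were not analysed here. The labels do not tell if the 2 replicates are separate cultures, so their differences may be technical. Read depth is unknown, and the intervals given, with a peak as the unit counted, cover counting error alone.

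ZIM-1 belongs to a small family of zinc finger proteins with HIM-8, ZIM-2 and ZIM-3. In meiosis these proteins bind pairing centers, regions toward 1 end of each chromosome that carry many copies of short sequence motifs, tether the chromosome to the nuclear envelope and start homologous pairing and synapsis. ZIM-1 is known for serving chromosomes II and III. In a peak list, a wide peak is a long stretch that the caller reported as a single region of enrichment, while the score reports its strength on the caller's own scale. A wide peak of moderate score is therefore a long stretch that scored below 100, as did 7333 of the 7742 peaks of these chromosomes. The limit thus leaves out only the highest-scoring peaks.

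The members ranged from 1001 to 11429 bp, with a median of 1300 bp (interquartile range 1104 to 1900). Their series-wide scores ran from 4.63 to 98.96 with a median of 19.3, against a median of 7.02 for the narrower peaks and a highest score of 174.44 in the list. The 479 members covered 848 kb, or 27.6% of all bases under peaks that scored below 100. Of the members, 295 were under 1500 bp, 74 were from 1500 to under 2000 bp, 85 from 2000 to under 4000 bp, and 25 were 4000 bp or wider. Across the 479 members, which share libraries and cluster along chromosomes, width and score had a Spearman rho of 0.33. The rule limits both values and leaves out the wide peaks that scored 100 or more. This rho therefore describes the members alone. The median score was 15.9 in the narrowest of these 4 classes and 42.25 in the widest.

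At the limits of the rule, neighbouring values lay close together. The members just inside the width limit were 1001 bp on V, 1002 bp on III and 1005 bp on II, and the peaks just outside it were 999 bp on II, 998 bp on IV and 997 bp on III. The members just inside the score limit scored 98.96, 97.25 and 96.41, and the wide peaks just outside it scored 100.67, 100.71 and 101.11. A second member of 1005 bp lay on IV. The 6 named peaks nearest the width limit were found in replicate 1 and not in replicate 2, the second of 1005 bp was found in both, and so were the 6 nearest the score limit. Another 222 wide peaks of the same chromosomes scored 100 or more, with a median width of 1772 bp, and 222 of 222 were found in both replicates.

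The replicate lists were used to ask which members recur in each library. A member was called found when it overlapped a replicate peak by at least 1 bp. In replicate 1, 456 of 479 members were found, or 95.2% (92.9 to 96.9), where 59.6% of all 7742 peaks of these chromosomes were found. In replicate 2, 304 members were found, or 63.5% (59 to 67.8), where 31.8% of all peaks were. Both replicates held 283 members, or 59.1% (54.5 to 63.5; 26.4% of all peaks), replicate 1 alone held 173 (36.1%; 33.2% of all peaks), replicate 2 alone held 21 (4.38%; 5.35% of all peaks), and 2 members were in neither (0.418%; 35.0% of all peaks). The sources used here do not say if the series-wide list rests on the same reads as the replicate lists, so these shares are not independent support for the members and were not tested.

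**Figure D1:**
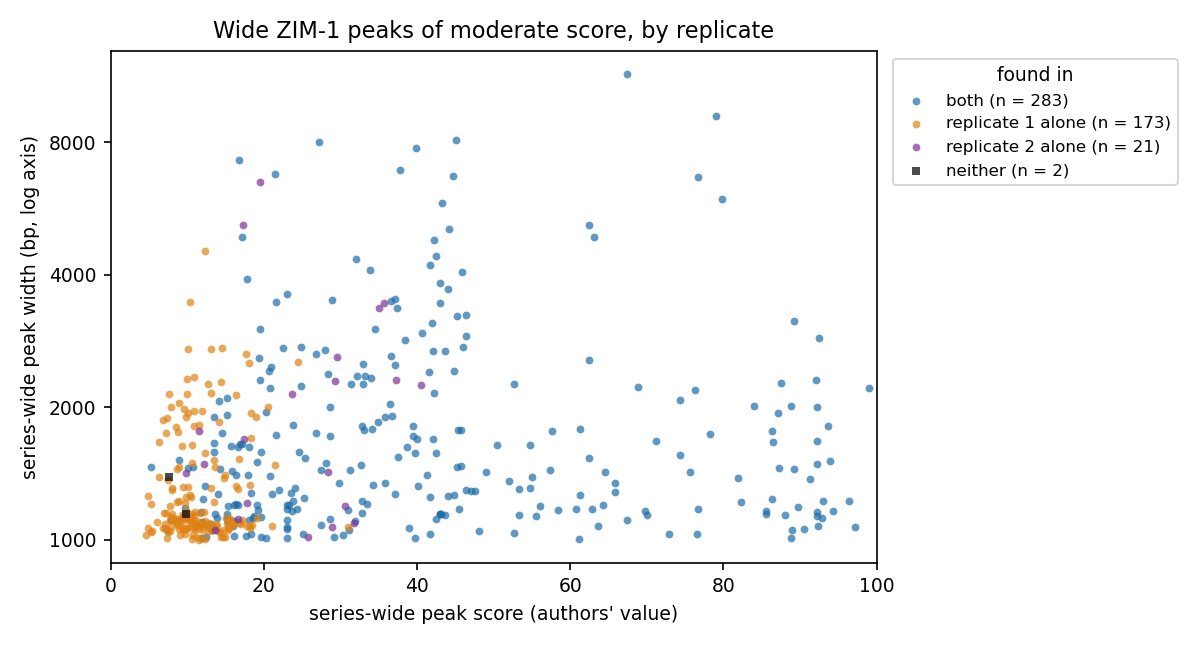
Each point is 1 of the 479 members, with its series-wide score on the x axis and its width in bp on a log y axis, coloured by the replicate lists in which it was found. Members found in replicate 1 alone sit mostly at the lower left, with a median score of 10.9 and a median width of 1116 bp. Those found in both have medians of 36.7 and 1448 bp.

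The classes differed in size. Members found in both replicates had a median width of 1448 bp, those in replicate 1 alone 1116 bp and those in replicate 2 alone 1698 bp. Their median scores were 36.7, 10.9 and 25.8. In replicate 1 alone no member scored above 30.98, whereas members found in both reached 98.96. In the plot of width against score, much of the class in replicate 1 alone lies just above the width limit, which the rule itself sets. Its upper quartile of width was 1464 bp and its highest width 4530 bp.

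Score and width both entered these shares, so members were compared with other peaks within bands of score. Narrower peaks weighted to the score bands of the members were found in both replicates at 51.2%, against 59.1% of members. Peaks of 500 to under 1000 bp, the class next in width, reached 63.5% under the same weighting. Members were thus found in both more often than narrower peaks as a whole and not more often than those of 500 to under 1000 bp. A wide peak also meets an overlap of 1 bp more easily than a narrow one.

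**Figure D2:**
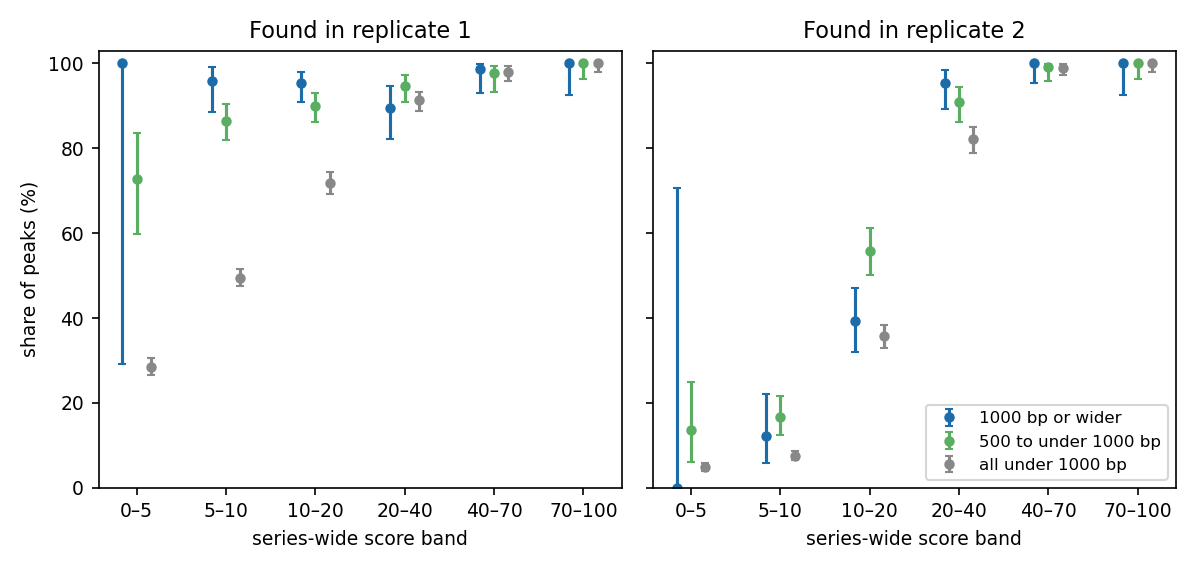
The share of peaks found in replicate 1 (left) and in replicate 2 (right) is plotted in percent for 6 bands of series-wide score, for members, peaks of 500 to under 1000 bp and all peaks under 1000 bp; bars are exact 95% intervals over peaks. In replicate 1 the members lie at or above 89.6% in every band, and in replicate 2 their share climbs from 12.3% at scores of 5 to 10 to 100% above 40.

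The bands separated the replicates. At series-wide scores of 5 to 10, 95.9% of 73 members were found in replicate 1 and 12.3% in replicate 2, while the narrower peaks of that band had 49.5% and 7.47%. At scores of 10 to 20, 95.3% of 170 members were found in replicate 1 and 39.4% in replicate 2. The share in replicate 2 then rose to 95.3% of 106 members at scores of 20 to 40 and to 100% of 79 members at 40 to 70. In replicate 1 it was 89.6% and 98.7% in these bands. Low-scoring members were therefore largely peaks of replicate 1, and members above a score of 40 were peaks of both, 1 excepted. Peaks of 500 to under 1000 bp went the same way, with 86.5% in replicate 1 and 16.7% in replicate 2 at 5 to 10. At 10 to 20 they had 90.0% and 55.8%. Of all narrower peaks, 97.1% were found in both at scores of 40 to 70 and 100% at 70 to 100. This change with score was thus not particular to the members.

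Covered bases gave the same order of the replicates. Peaks of replicate 1 covered 90.1% of the bases of the members, and peaks of replicate 2 covered 57.9%. Both covered 51.2% together. For narrower peaks the covered shares were 61.2% and 31.5%. Among members found in both replicates, the replicate peak that shared the most bases with the member had a median width of 1420 bp in replicate 1 and 1153 bp in replicate 2.

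Most members were 1 peak in each list that held them. Of the 456 members found in replicate 1, 67 met 2 or more of its peaks (14.7%, 11.6 to 18.3), and of the 304 found in replicate 2, 44 did (14.5%, 10.7 to 18.9). Among narrower peaks found in each list these shares were 1.87% and 0.229%, and among the 222 wide peaks that scored 100 or more they were 14.9% and 9.91%. A wide peak has more room for several replicate peaks than a narrow one. The reverse also occurred. In replicate 1, 8 peaks were each the main partner of 2 or more members, 19 members in all and 4 at most on 1 peak, and in replicate 2, 4 peaks were the main partner of 8 members. The shortest gap between neighbouring peaks of the series-wide list was 51 bp, for members and narrower peaks alike, and 47.8% of members lay within 500 bp of another peak, against 41.8% of narrower peaks.

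Members ranked higher in the replicate 1 list than narrower peaks of like series-wide score. Members found in replicate 1 met peaks with a median score percentile of 83.7 within that list, where narrower peaks met peaks at 47.1. At series-wide scores of 5 to 10 the members met replicate 1 peaks at a median percentile of 78.4, with a median score of 493, against 37.2 and 110 for the narrower peaks of that band. At scores of 70 to 100 the medians were the 93.6th percentile for members and the 82.7th for narrower peaks. In replicate 2 the order at scores of 5 to 10 was the reverse: the few members found there met peaks at a median percentile of 10.7, against 22.8 for narrower peaks and 26.7 for those of 500 to under 1000 bp. From a score of 10 on, members ranked higher in replicate 2 as well, with medians of 33.8 against 22.9 at 10 to 20 and 85.2 against 71.0 at 70 to 100. Across members the series-wide score had a Spearman rho of 0.50 with the replicate 1 score over 456 members and 0.62 with the replicate 2 score over 304 members. All these scores are the authors' values, and the lists were compared by percentile within each, since they differ in length (5552 and 2887 peaks).

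**Figure D3:**
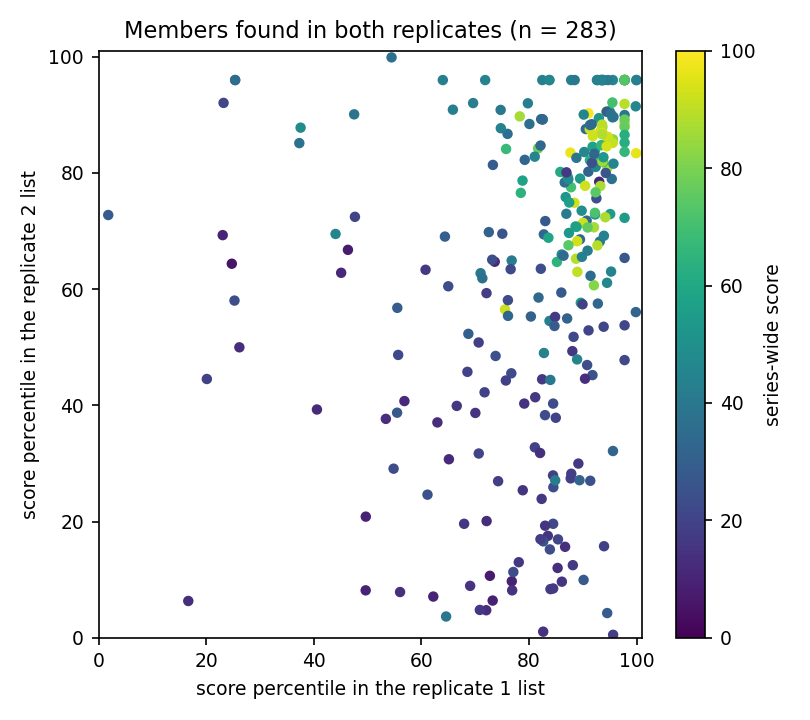
For the 283 members found in both replicates, the score percentile of the overlapping peak within the replicate 1 list (x axis) is plotted against that within the replicate 2 list (y axis), coloured by series-wide score. The lists differ in length, so a point's place is read along each axis; members gather at high percentiles of replicate 1, with a median of 87.2, and spread widely in replicate 2, with quartiles of 44.9 and 86.4.

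Some members ranked at the top of a replicate list in spite of their moderate series-wide score. The value of 3100, at which many peaks of the replicate lists are tied, or a higher one, was reached by 28 members in replicate 1 and by 38 in replicate 2, and 11 of those found in both reached it in both. Only 15 and 9 of the far more numerous narrower peaks reached it. Among the 222 wide peaks at or above the score limit, 176 reached it in replicate 1 and 163 in replicate 2. A replicate score this high was far more frequent among those wide peaks than among members. The rule divides these groups by series-wide score, so this difference follows at least in part from the choice and is no result about the members. Members at or above 3100 in replicate 2 were wide, with a median of 3252 bp, and had a median series-wide score of 42.8. Of these 38 members, 7 were absent from replicate 1, and where present there their replicate 1 score was as low as 84.2, with a median of 1850.

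The widest members of each chromosome illustrate this range. On III the widest of all, from 321699 to 333127 (11429 bp, score 67.36), met 9 peaks of replicate 1 and a single replicate 2 peak of 11572 bp with a score of 3100. The member on III from 13584176 to 13592171 (7996 bp, score 27.16) met 2 peaks in replicate 1 that covered 99.1% of it and 5 in replicate 2 that covered 41.1%. The third, from 6566700 to 6574467 (7768 bp, score 39.85), was a single peak in each, with scores of 3100 and 2100.29. All 3 were found in both lists, and the first 2 were broken into separate peaks in one replicate more than in the other.

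On II, the other chromosome that ZIM-1 is known to serve, the widest member ran from 3159401 to 3168577 (9177 bp, score 79.09) and was 1 peak scored 3100 in each replicate. The next, from 8288313 to 8292722 (4410 bp, score 42.52), scored 1777.82 in replicate 1 and 3100 in replicate 2. The third, from 1450476 to 1454812 (4337 bp, score 31.97), scored 3150.40 in replicate 1, whereas replicate 2 held 3 peaks that covered 37.7% of it. The replicates thus marked the first 2 alike in extent and the last unequally.

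Of the 5 chromosomes, IV had the shortest widest member. It ran from 4416396 to 4421593 (5198 bp, score 17.27), and it was absent from replicate 1 and scored 2125.22 in replicate 2. The member from 11070841 to 11075934 (5094 bp, score 44.14) scored 345.09 in replicate 1 and 3100 in replicate 2. The reverse held from 11610611 to 11615493 (4883 bp, score 17.09), with 953.42 in replicate 1 and 68.68 in replicate 2, where 17.3% of it was covered. None of the 3 reached 3100 in both lists.

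On V the widest members ran from 10605593 to 10612498 (6906 bp, score 37.81) and from 3434510 to 3441167 (6658 bp, score 76.72), and both scored 3100 in each replicate. Between them in width was a member from 17119896 to 17126612 (6717 bp, score 44.70), which scored 682.93 in replicate 1, inside a single peak of 12578 bp, and 3100 in replicate 2. On X the widest, from 10361049 to 10369153 (8105 bp, score 45.15), scored 576.36 and 977.31 and was covered whole in each list. The members of X from 289462 to 295294 (5833 bp, score 43.31) and from 109474 to 114278 (4805 bp, score 42.25) lay near its left end, where the pairing center bound by HIM-8 lies, and scored 3223.52 and 1873.81 in replicate 1 and 3100 in replicate 2. Series-wide scores of 4 of these 6 members of V and X thus lay from 42.25 to 45.15.

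The highest-scoring members were mostly shorter. They were on II from 1389104 to 1391310 (2207 bp, score 98.96), on IV from 8288828 to 8289897 (1070 bp, 97.25), on III from 1608097 to 1609323 (1227 bp, 96.41), on V from 18071009 to 18072683 (1675 bp, 92.19) and on X from 166989 to 168134 (1146 bp, 85.57). All 5 were found in both replicates, with replicate 1 scores from 907.76 to 3166.86 and replicate 2 scores from 918.88 to 2188.71. The 2 members found in neither replicate were on V from 6179107 to 6180495 (1389 bp, score 7.60) and on III from 13780725 to 13781868 (1144 bp, score 9.88), close to the last peak of that chromosome, which ends at 13783723.

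The width distribution did not fall smoothly past the limit of 1000 bp. Among peaks that scored below 100, counts per 50 bp fell from 172 at 600 to 649 bp to 32 at 950 to 999 bp, then rose to 40, 74 and 59 in the next 3 steps before falling to 29 at 1150 to 1199 bp. The rise lay mainly in peaks found in replicate 1 alone, which numbered 17, 20, 54, 27 and 5 over the 5 steps from 950 to 1199 bp. Peaks found in both numbered 14, 19, 17, 30 and 23. This range of widths was singled out after the values were seen.

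**Figure D4:**
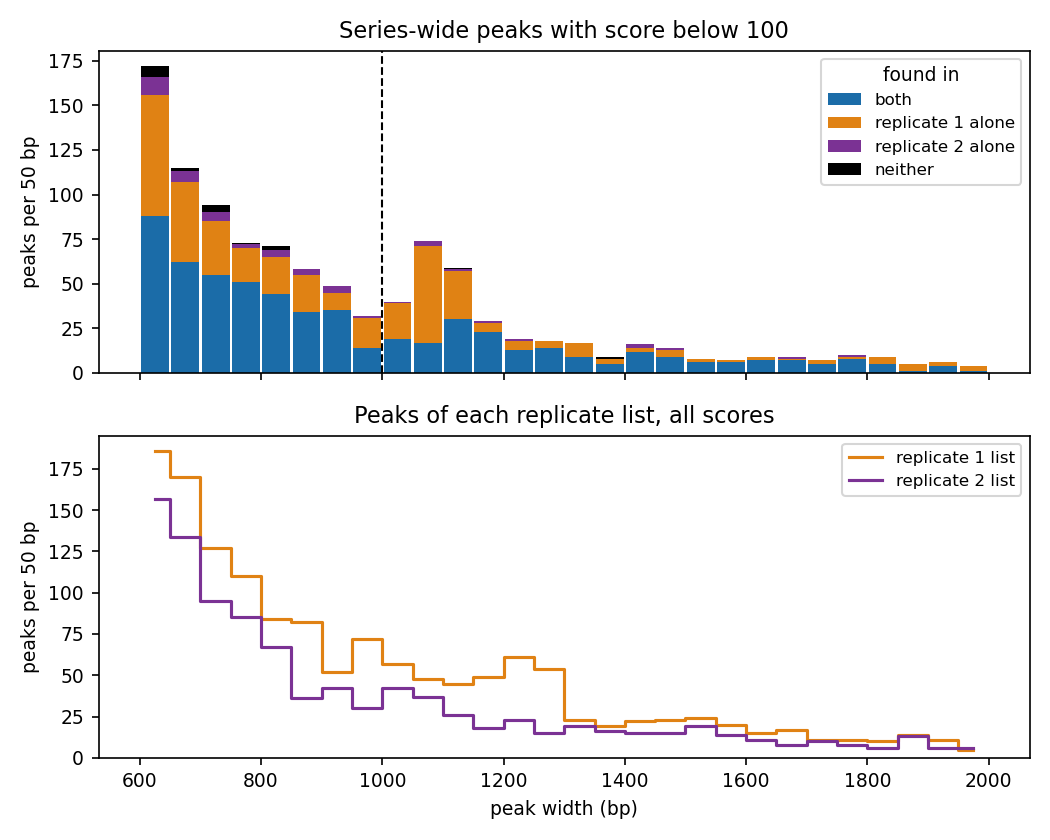
The upper panel counts series-wide peaks with scores below 100 per 50 bp of width, stacked by the replicate lists in which they were found, with the limit of 1000 bp dashed; the lower panel counts peaks of each replicate list at all scores. A second rise at 1050 to 1149 bp consists mainly of peaks found in replicate 1 alone (54 and 27), and the replicate 1 list rises to 61 and 54 at 1200 to 1299 bp where replicate 2 has 23 and 15.

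The peaks behind that rise were picked by width and by replicate, so their like series-wide widths follow from the choice. Of the 133 members 1050 to 1149 bp wide, 81 were found in replicate 1 alone, 47 in both, 4 in replicate 2 alone and 1 in neither. In replicate 1 the 81 met peaks of similar width, with a median of 1240 bp (interquartile range 1196 to 1280), and 79 met exactly 1. Their replicate 1 scores ran from 53.75 to 1641.35, with quartiles of 458 and 628 around a median of 559. Their series-wide scores had quartiles of 9.20 and 14.8 around a median of 11.1. All 173 members in replicate 1 alone had similar series-wide scores, with quartiles of 8.94 and 13.98 around a median of 10.89. The 81 members of 1050 to 1149 bp lay on all 5 chromosomes, from 22 on V and 21 on II to 11 each on III and X. Of these 81, 21 had another peak within 500 bp. The 47 members of this width found in both had a median score of 23.03 and replicate 1 partners with a median width of 1116 bp.

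The number of members dropped above a score of 48, a pattern also singled out after the scores were seen. From 40 to under 48 there were 44 members, 23 of them 2000 bp or wider, and 18 of the 44 had a replicate 2 score of 3100 or more, against 3 in replicate 1. From 48 to under 56 there were 12 members, of which 1 was 2000 bp or wider and 0 reached 3100 in replicate 2. The step below, from 32 to under 40, held 40 members, with 19 of 2000 bp or wider and 8 at 3100 or more in replicate 2. Narrower peaks numbered 161, 122 and 83 over the same 3 ranges in rising order of score. The median width of the members was 1903.5 bp at 32 to under 40, 2200.5 bp at 40 to under 48 and 1335 bp at 48 to under 56.

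By chromosome, members were densest on III, with 111, or 8.05 per Mb (exact Poisson 95% interval 6.62 to 9.70). II followed with 96, or 6.28 per Mb (5.09 to 7.67), V with 125, or 5.97 (4.97 to 7.12), and IV with 95, or 5.43 (4.39 to 6.64). X held 52, or 2.93 per Mb (2.19 to 3.85), below the interval of every autosome examined. Neighbours in the order from III to IV had overlapping intervals. The share of wide peaks among peaks below a score of 100 followed another order, from 7.72% on V (6.46 to 9.12), 6.95% on II, 6.36% on X and 6.24% on III to 5.48% on IV (4.45 to 6.65), with intervals that all overlapped. Chromosome III thus had many members where it had many peaks of any width, 121 narrower ones per Mb against 84.1 on II and 43.2 on X.

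Members of III and X were the widest and those of II and V the narrowest by the share of 2000 bp or more. It was 31.5% on III (23.0 to 41.04), 32.7% on X (20.3 to 47.1), 23.2% on IV (15.1 to 32.9), 16.8% on V (10.7 to 24.5) and 15.6% on II (9.02 to 24.5), and the intervals overlapped. Members recurring in both lists made up 65.8% on III (56.2 to 74.5), 63.2% on V, 62.1% on IV, 50% on II (39.6 to 60.4) and 46.2% on X (32.2 to 60.5). Those in replicate 1 alone made up 48.1% on X and 46.9% on II, against 27.9% on III. The median score was highest on III, at 23.5, and lowest on II, at 15.7, and scores of 40 or more were held by 35.1% of members on III and 21.9% on II. Shares by replicate were not computed for the narrower peaks of each chromosome, so those above cannot be read as particular to the members. These chromosomes are not replicates, and the differences were not tested.

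Pairing centers lie at the left ends of II, III, IV and X and at the right end of V, so members were counted within 2 Mb of both ends. The left end of III held 31 members, 15.5 per Mb against 6.79 on the rest of the chromosome, while its right end held 16, or 8 per Mb against 8.06. The left end of II held 23, 11.5 per Mb against 5.50, and its right end 18, 9 per Mb against 5.87. On X the left end held 13, 6.50 per Mb against 2.48, and its right end 7, 3.50 per Mb against 2.86. On V the right end held 18, 9 per Mb against 5.65, and its left end 8, 4 per Mb against 6.18. The left end of IV held 11, 5.50 per Mb against 5.42, and its right end 13, 6.50 per Mb against 5.29. The density of members thus exceeded that of the rest of the chromosome at the pairing center end of II, III, V and X, and on IV by little.

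Narrower peaks also gathered at these ends. The left end of III held 27.9% of its members (19.8 to 37.2) and 24.2% of its narrower peaks, that of X held 25% and 24.8%, and that of II held 24.0% (15.8 to 33.7) and 18.3%. The right end of V held 14.4% of its members (8.76 to 21.8) and 16.9% of its narrower peaks. Within III the placement differed in detail: the first of 10 equal parts held 20.7% of members and 12.4% of narrower peaks, the second 13.5% and 19.5%, and the sixth 15.3% and 7.37%.

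**Figure D5:**
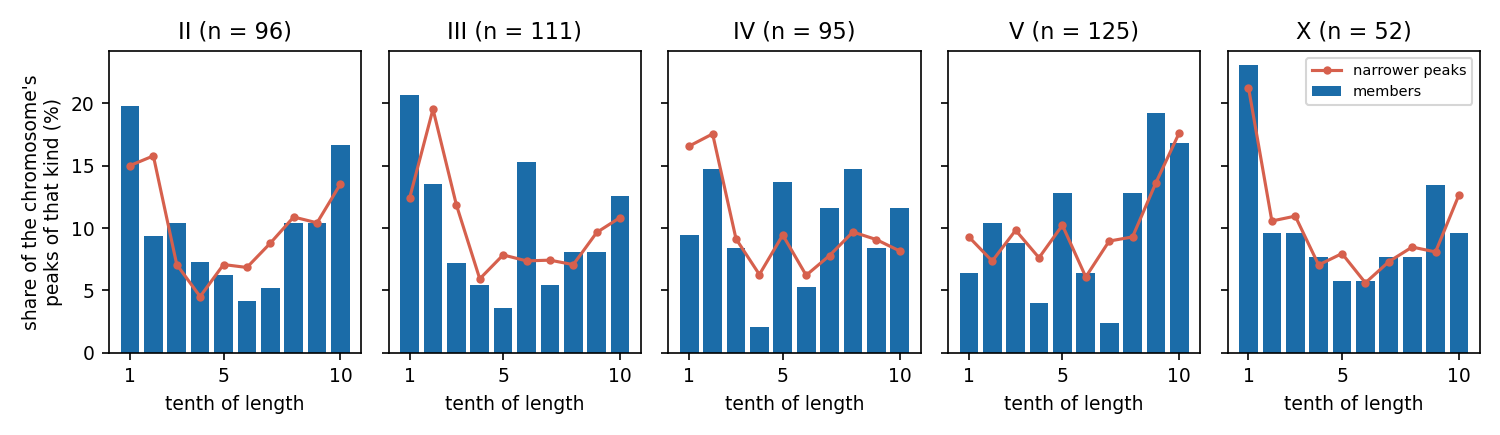
For each chromosome, bars give the percent of its members in 10 equal parts of its length from left to right, and the line gives the same for its narrower peaks. On III the first holds 23 of 111 members and the sixth 17, and on X the first holds 12 of 52.

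Of the 10 end windows of 2 Mb, the left end of IV had the largest gap between the shares of members and of narrower peaks. The left 2 Mb of IV held 11.6% of its members (5.92 to 19.8) and 18.9% of its narrower peaks (17.03 to 20.9), so wide peaks made up 3.43% of the peaks below a score of 100 there (1.72 to 6.05), against 5.48% on the chromosome. At the left end of II that share was 8.91% (5.74 to 13.1). Over all 10 ends together, 33.0% of members (28.8 to 37.4) and 33.3% of narrower peaks lay in the outer 2 Mb, which hold 23.5% of the sequence. Away from the ends, the sixth of 10 equal parts of III held 17 of 111 members, against 4 in the fifth. Of these 17, 11 lay in a single stretch of 46876 bp. This part was singled out after the values were seen.

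Members clustered. Another member lay within 10 kb of 146 members, or 30.5% (26.4 to 34.8), while 19.5% of narrower peaks (18.5 to 20.4) had a member that close. Neighbouring members count each other, which the interval does not allow for, and some of them shared a replicate peak. The share was not recomputed with such members joined. When members less than 10 kb apart were joined, they formed 391 runs, of which 333 held 1 member, 42 held 2 and 16 held 3 or more. The runs of 3 or more held 62 members, and III had 6 of them, II and V 4 each, and IV and X 1 each. In 41 of the 58 runs with 2 or more members, all members belonged to the same class of replicates. Of all members, 59.1% were in both lists and 36.1% in replicate 1 alone, and no expected number of such runs was computed. Members that shared a main replicate peak, 19 in replicate 1 and 8 in replicate 2, were necessarily found together in that list.

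The longest run, on III from 7405297 to 7452172, held 11 members that covered 38252 of its 46876 bases. They were 11 of the 17 in the sixth of 10 parts of III. Members of this run scored from 13.66 to 43.04, with 6 in both lists, 2 in replicate 1 alone and 3 in replicate 2 alone. Its left part, from 7405297 to 7414242, held 3 members under a single replicate 1 peak of 9062 bp with a score of 710.55, and replicate 2 peaks there scored from 62.71 to 148.45. The middle, from 7415460 to 7425050, held 3 members with replicate 2 peaks scored from 89.87 to 121.48 and none in replicate 1. The member from 7444289 to 7448120 scored 627.56 in replicate 1 and 3100 in replicate 2. That member was covered whole in each list, and coverage of the other 10 differed between the lists.

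On II, 6 members from 13817692 to 13827689 were 1022 to 1477 bp wide and scored from 9.32 to 21.42. In replicate 1 each met its own peak, scored from 626.16 to 959.76, while replicate 2 met only the first of them, with a peak of 437 bp and a score of 62.32. A second run of II, named after its values were seen, followed from 14323816 to 14339198 with 5 members. Up to 14331760, 4 members scored from 6.82 to 11.10 and lay under a single replicate 1 peak of 8063 bp with a score of 1641.35, and replicate 2 held none of them. The fifth member, from 14337502 to 14339198, scored 314.12 in replicate 1 and 3000.03 in replicate 2.

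The run of X, from 7353619 to 7361213, held 3 members, all in replicate 1 alone. The first 2 lay under a replicate 1 peak of 5245 bp with the tied score of 3100, and the third met one scored 1321.63, while their series-wide scores were 13.05, 10.86 and 13.05. On IV the run from 221155 to 230875 held 3 members, of which 2 were in both replicates with scores of 36.52 and 32.80 and 1 in replicate 1 alone with 5.38. On V, 4 runs held 3 members each, starting at 10018761, 14755444, 17117774 and 18882427, and all 12 of their members were found in both replicates. That from 17117774 to 17132153 had the closest scores of the 4, from 44.7 to 45.83.

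The reverse pattern, members of replicate 2 alone, was rarer and reached high ranks. On II, 2 adjoining members from 4641169 to 4644986 (scores 28.92 and 29.57) shared a replicate 2 peak of 4025 bp with a score of 3100. On IV, members from 8575898 to 8578042 and from 8578277 to 8581731 (23.63 and 35.71) each met a replicate 2 peak scored 3100. The remaining members with that score in replicate 2 and no peak in replicate 1 were on III from 1017282 to 1020642, on V from 264965 to 267272 and on X from 11785589 to 11787836. These 7 members, named after their values were seen, scored from 23.63 to 40.47 in the series-wide list.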

How the data were processed

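ChIP-seq peak lists of 2 ZIM-1 ChIP replicates and of the series were analysed, 3 lists in all. The deposited score of each peak is the authors' value from MACS (replicate lists) or MACS v2 (series-wide list), per the file headers and source columns, on WormBase WS220; which quantity it is, the control and the settings are not given in the sources used here. The submitters' processing notes name BWA and ce10. The other deposited values used were first and last bases.

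Overlaps, widths, gaps and shares were computed with Python 3.11.15, numpy 2.4.6, pandas 2.3.3 and scipy 1.17.1, and tested on simulated data. The end of the last peak in the 3 lists stood for the length of a chromosome. Shares have exact Clopper-Pearson and densities exact Poisson intervals at 95%. Regions were named by rule: the 3 widest and the highest-scoring member and the run with the most members per chromosome, members in neither replicate, and peaks next to the limits. Regions named outside this rule are given in the text as chosen after their values were seen. Members, lists and score bands were chosen with earlier results of these data known. No test was made: the rule used width and score, and regions are not replicates. Gene content and sequence were not analysed here, since the gene table used is of another build (WBcel235).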

Additional observations from a re-analysis of the deposited data

How the results depend on the processing

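No paired analysis was possible because the input group enters no comparison here. With a minimum width of 1500 bp, where fewer peaks enter, 184 members remained; 71.7% were found in both replicates, 61.6% of bases were covered by both, 18.5% met 2 or more replicate 1 peaks, the median replicate 1 percentile was 90.1, 27.7% lay in the outer 2 Mb and 25.5% had another member within 10 kb. The share of such peaks was then 2.39% on II, 2.81% on III, 2.13% on IV, 2.47% on V and 2.93% on X. With scores below 50, 50.8% were found in both, 43.2% of bases were covered by both, the median percentile was 82.1 and the share of wide peaks on III was 4.93%. With the higher-scoring 50% of each replicate list, 39.5% were found in both and 39.7% of bases covered. With 1 replicate left out, the share found was 63.5% without replicate 1 and 95.2% without replicate 2, and the covered share 57.9% and 90.1%; in replicate 2 in place of replicate 1, 9.19% of all members met 2 or more peaks (14.5% of the 304 found there, against 14.7% of the 456 found in replicate 1) and the median percentile was 71.1. The outer 1 Mb held 15.9% and the outer 3 Mb 48.2% of members, and 23.8% had another member within 5 kb and 41.5% within 20 kb. Of 42 alternatives, 15 stayed within the interval of the reported value or, for a count, within 1.5 times of it; among them were an overlap of at least 50% of the shorter peak (58.9% found in both) and 2 settings added after seeing the data, members that meet the same replicate peak joined into 1 (462 members, 59.1% in both) and members within 100 kb of an end left out (472, 59.5%). Some of these shifts have a direction fixed by the settings. A larger outer window or a longer distance cannot lower the share, and a higher width limit cannot raise the number of members. Leaving out a replicate cannot lower the share found or the share covered. The cause of the other shifts was not tested. Since read depth is unknown, a peak missing from a list may be one that could not be detected there.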
